A study of Drosophila melanogaster with 30 samples.

Results

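Odorant-binding proteins (Obp genes) were followed in RNA-seq data of adult Drosophila melanogaster heads. Members were all genes whose FlyBase symbol begins with Obp and a number, which gave 51 of the 17918 genes listed in the deposited tables. The gene lush, another odorant-binding protein, carries a different symbol and was therefore treated as a neighbour of the family and not as a member.

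Odorant-binding proteins are small secreted proteins. In the antenna and the taste organs, support cells release them into the fluid around the sensory neuron endings, where they bind hydrophobic odorants and pheromones. Several members are made outside sense organs, in fat body, glia or reproductive tissue, and bind lipids or other ligands there.

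The series asked what overexpression of Bchs (Blue cheese, related to human WDFY3) does in neural tissue, using the Gal4/UAS system, in which a driver line turns on a UAS transgene. Glial overexpression flies (repo-Gal4/UAS-bchs::HA) were set against flies with repo-Gal4/+ alone and flies with UAS-bchs::HA/+ alone, which together form the glia dataset. Neuronal overexpression flies (nSyb-Gal4/UAS-bchs::HA) were set against flies with nSyb-Gal4/+ alone and flies with UAS-bchs::HA/+ alone, the neuron dataset. The driver-only and transgene-only flies are the controls, called repo-Gal4/+, nSyb-Gal4/+ and UAS/+ groups, and each dataset has its own UAS/+ group. Each of the 6 groups had 5 libraries of heads taken 22 to 31 h after eclosion. The driver of glia is active in most glial cells and the driver of neurons in differentiated neurons, so neither is specific to chemosensory organs. Counts were scaled to depth as CPM with library sizes adjusted by TMM, and values written with ± are means and SDs over the 5 libraries of a group. The sex of the flies and the number of heads per library are not given in the labels. Replicates are separate samples by their labels, and nothing says that they came from separate crosses, so p-values measure the spread between these samples.

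Libraries held 28685786 to 84208964 gene counts in glia samples and 44017794 to 60266009 in neuron samples. The transgene was read out as bchs itself, at 1207 ± 50.3 CPM in glial overexpression heads, 155 ± 67.3 in the repo-Gal4/+ group and 167 ± 83.9 in the UAS/+ group. With the neuronal driver bchs reached 428 ± 97.6 CPM, compared with 102 ± 16.6 in the nSyb-Gal4/+ group and 91.3 ± 10.05 in the UAS/+ group (SD, n = 5 each). A pair of control libraries of the glia dataset stood apart, UAS control 2 and repo-Gal4 control 3. Their length slopes, how far log2 values departed from their dataset's median with each doubling of exon length, were -1.17 and -0.80, against -0.32 to 0.08 in the other 28 libraries, so that short genes were high in both. The low end of that range was glial overexpression 3 and 5, at -0.317 and -0.312. Fits without the pair keep these libraries and are therefore not free of a length slope. Obp genes are short, with a median exon length of 644 bases over tested members against 1941.5 over all tested genes, and glia results are therefore given with and without this pair.

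Obp genes lie mostly in arrays. By the Ensembl annotation of BDGP6.54, 36 members formed 8 clusters of neighbours and 15 stood alone. Chromosome arm 2R held 29 members, 3R 12, X 6, and 2L and 3L 2 each. The longest array was Obp56a to Obp56i on 2R, with 9 genes, followed by the Obp50 array of 5 genes, the Obp57 array of 5 genes, and arrays of 4 genes each at Obp58b to Obp59a, Obp99a to Obp99d and Obp19a to Obp19d. Neighbours differed widely in level. In the Obp56 array the mean over groups ran from 0.00325 CPM per kb for Obp56i to 789 for Obp56e, and in the Obp19 array on X from 8.35 for Obp19c to 1384 for Obp19d. Exons of 14 members overlapped another annotated gene, 8 of them tested members. The strand setting of the authors' counting is not given in the sources used here, so for Obp44a (overlapping Pabp2), Obp84a (Dtwd2), Obp59a (CG30259), Obp69a (CG32104), Obp56e (asRNA:CR44509), Obp99c (Gycalpha99B), and the overlapping pair Obp83cd and Obp83ef, reads of both genes may not have been told apart. Obp50b and Obp50c share the same exons and were at 0 counts in every library.

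Levels were compared between genes as CPM per kb of exon, as means over the 6 groups. There were 13 members at or above 100 CPM per kb, 18 between 1 and 100, and 20 below 1. Obp19d was the highest at 1384 CPM per kb, followed by Obp99c at 1039, Obp44a at 1023, Obp56e at 789 and Obp56d at 644. The 5 members with the highest CPM in each library gave 71.2 to 79.7% of its Obp CPM. The order of Obp99c and Obp44a was not separated by the libraries, with Obp99c higher in 18 of 30. Obp44a is a lipid carrier made by glia of the nervous system, and Obp19d is a long-known antennal and gustatory member of the family. Over tested members above 1 CPM per kb, the highest group mean exceeded the lowest by 1.13-fold for Obp18a up to 5.84-fold for Obp99a and 10.9-fold for Obp99b. Within groups the members varied more than genes did in general, with a median coefficient of variation of 8.70% over members in neuronal overexpression, against 6.61% over all tested genes, and of 24.9% in glial overexpression, against 14.2%.

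**Figure D1:**
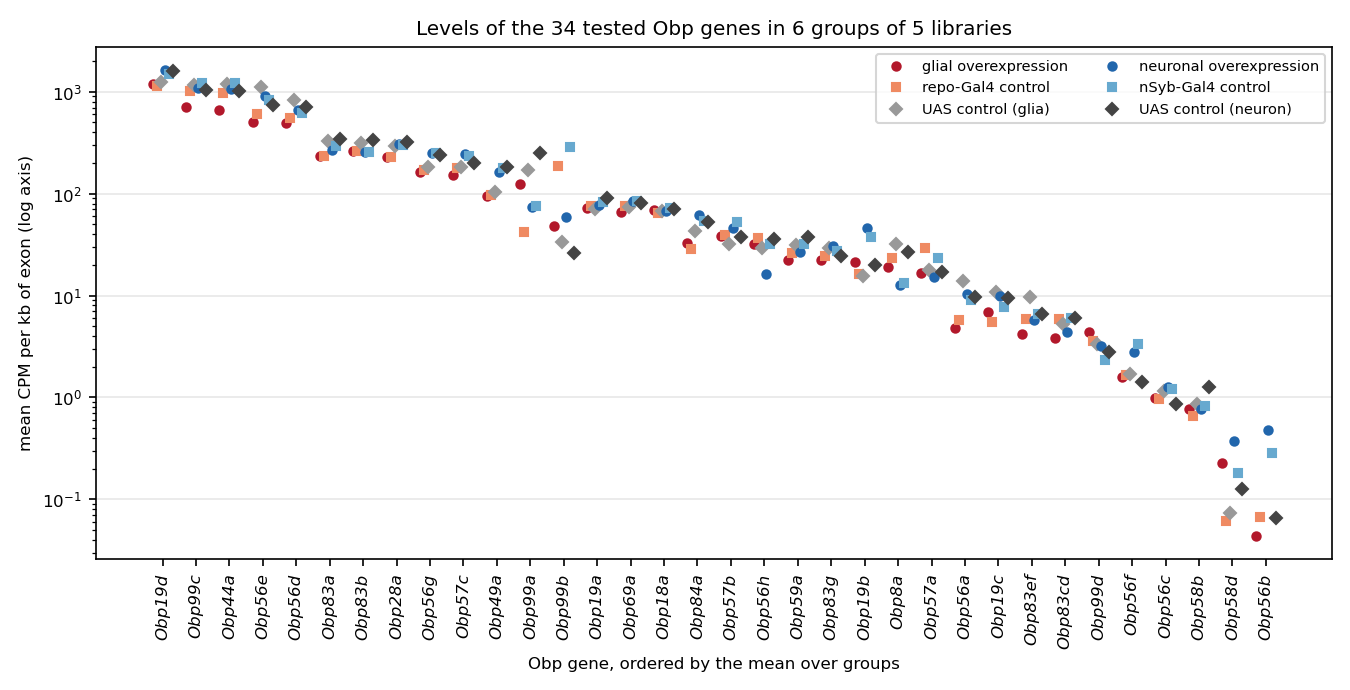
Mean CPM per kb of exon (log axis) of the 34 Obp genes tested in at least 1 dataset, by group (points, means of 5 libraries), ordered by their mean over groups. Obp99a and Obp99b show the widest spread between groups among genes above 100 CPM per kb, and Obp56b is at 0 in the UAS/+ group of the glia dataset, which cannot be drawn on this axis.

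Further antennal members came next in the order, and others lay lower in it. Obp83a (OS-F) and Obp83b (OS-E), made by support cells of the pheromone-sensing hairs, were at 283 and 281 CPM per kb, and Obp28a, also antennal, was at 280.2. Obp83a was above Obp83b in 14 of 30 libraries, and Obp83b above Obp28a in 18 of 30, so these neighbours in the order were not separated. Obp69a was at 77.6 CPM per kb, Obp84a, a gene of the coeloconic hairs, at 45.5, and Obp59a, needed for humidity sensing, at 29.3. Obp49a, which takes part in the suppression of sweet taste by bitter compounds, was at 136 CPM per kb. Of Obp57d and Obp57e, taste genes tied to host choice in Drosophila species, Obp57d was at 0 counts in all 30 libraries and Obp57e at 0.133 CPM per kb.

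Of the 51 members, 32 passed the filter on low counts in glia samples and 34 in neuron samples, the difference being Obp56b and Obp58d. The other 17 were Obp22a, Obp46a, Obp47a, Obp47b, Obp50a, Obp50b, Obp50c, Obp50d, Obp50e, Obp51a, Obp56i, Obp57d, Obp57e, Obp58c, Obp73a, Obp85a and Obp93a. None of these 17 exceeded 130 counts summed over 30 libraries, 10 members had at most 3 counts in every library, and 3 were at 0 throughout. The libraries held olfactory neurons by their markers, with the olfactory co-receptor Orco at mean CPM of 53.6 to 93.2 over the groups. All 6 genes of a list of male accessory gland products were below the filter, with a summed CPM of at most 0.228 in any library.

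Summed over all 51 members, Obp CPM was 4392 ± 656 in glial overexpression heads, 5049 ± 1649 in the repo-Gal4/+ group and 6170 ± 4545 in the UAS/+ group. It was 6174 ± 105 in neuronal overexpression, 6370 ± 491 in the nSyb-Gal4/+ group and 6204 ± 339 in the UAS/+ group (SD, n = 5 each). With scaling by library size alone, the neuron dataset means were 6268 in overexpression, 6104 in the nSyb-Gal4/+ group and 6395 in the UAS/+ group, so that the order of overexpression and the nSyb-Gal4/+ group depended on the scaling. The spread of the glia controls came from the pair that stood apart, with 7975 CPM in repo-Gal4 control 3 and 14300.4 in UAS control 2. Without them the repo-Gal4/+ group was at 4317 ± 239 CPM and the UAS/+ group at 4138 ± 70.9 (n = 4 each). In UAS control 2, 29 of 32 members were above all 4 other libraries of the group, with a median ratio to their mean of 2.76, against 46.3% of all tested genes and a median ratio of 0.957. In repo-Gal4 control 3 the count was 27 of 32 with a median ratio of 1.79, against 48.2% and 1.09 over all tested genes.

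**Figure D2:**
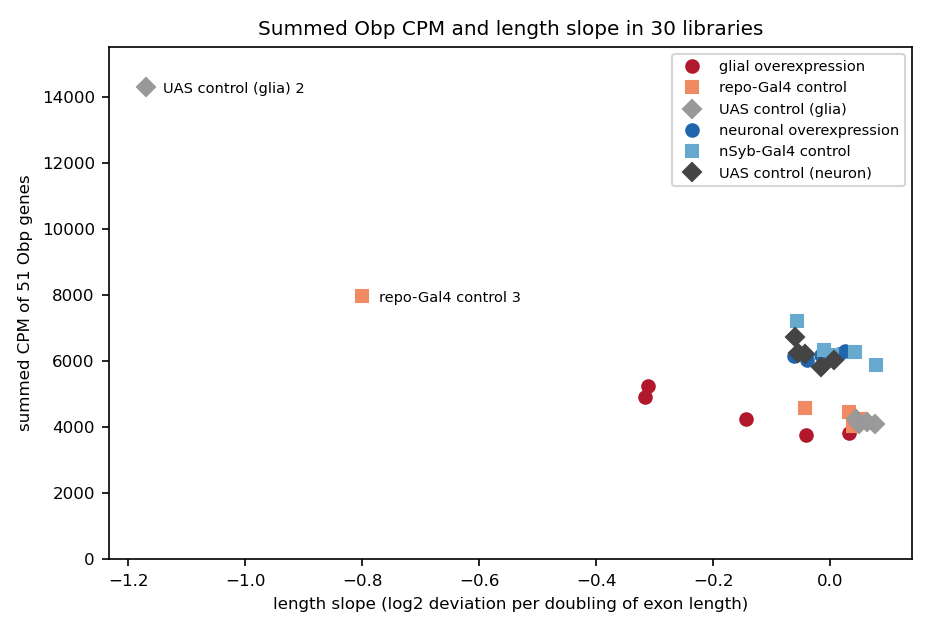
Summed CPM of the 51 Obp genes (vertical axis) against the length slope of each of the 30 libraries (horizontal axis). UAS control 2 of the glia dataset, with 14300.4 CPM, and repo-Gal4 control 3, with 7975 CPM, lie apart at slopes of -1.17 and -0.80.

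In neuronal overexpression, members of the family changed in both directions. Against the nSyb-Gal4/+ group, 8 of 34 tested members changed at an edgeR adjusted p under 0.05, 3 higher and 5 lower, with 16.5% of all tested genes changed, 8.19% higher and 8.34% lower. Against the UAS/+ group, 17 of 34 changed, 8 higher and 9 lower, with 38.6% of all tested genes changed, 18.3% higher and 20.2% lower. The nSyb-Gal4/+ group itself differed from the UAS/+ group in 15 members, 8 higher and 7 lower, with 25.6% of all tested genes, 11.8% higher and 13.8% lower. Against both controls with the same sign, 5 members changed, 2 higher and 3 lower, with 10.2% of all tested genes, 4.74% higher and 5.43% lower. The median log2 fold change over the 34 members was -0.03 against the nSyb-Gal4/+ group and 0.06 against the UAS/+ group, beside medians over all tested genes of -0.00 and -0.01.

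**Figure D3:**
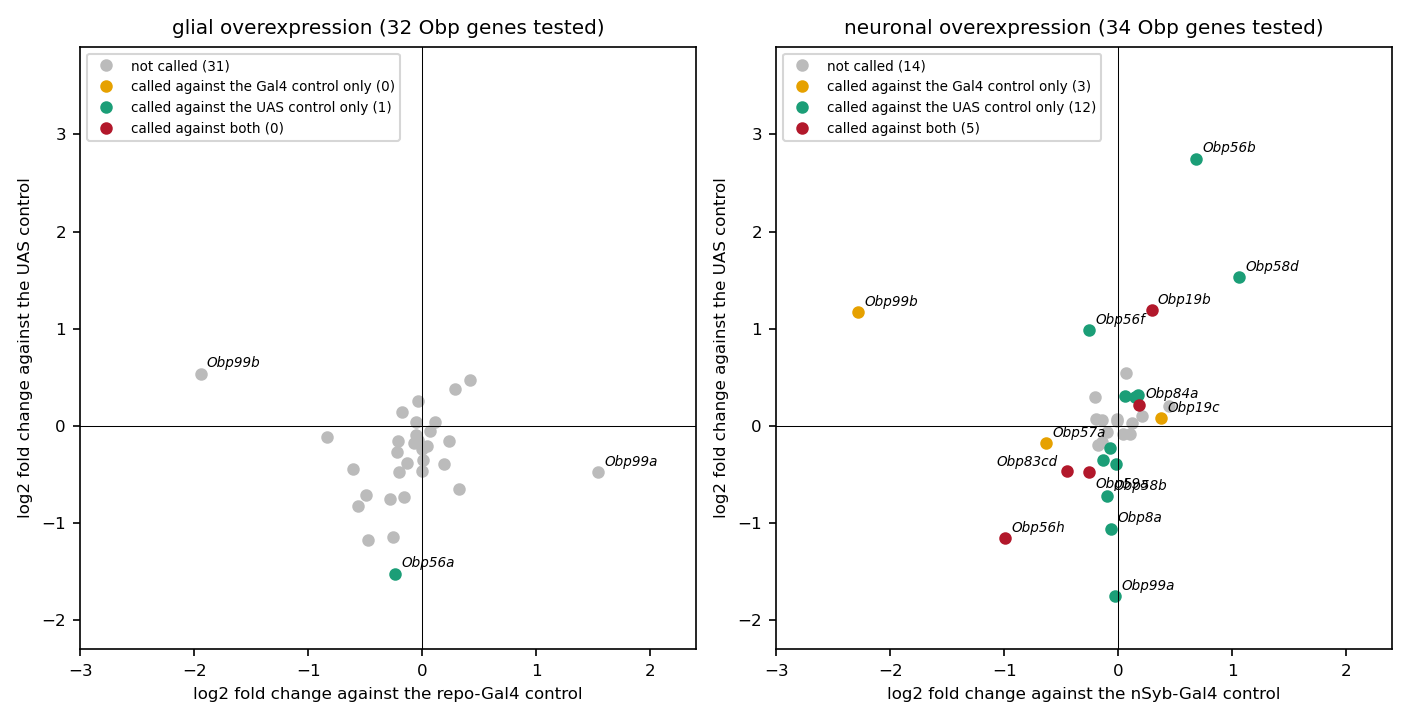
Log2 fold change of each tested Obp gene against the Gal4 control (horizontal axis) and against the UAS/+ group (vertical axis), for glial overexpression at left (32 genes) and neuronal overexpression at right (34 genes). Both axes share the overexpression libraries, and colours give the calls at an edgeR adjusted p under 0.05, by which in neurons 5 genes were called against both controls, and in glia none.

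Obp59a was lower in neuronal overexpression than in every control library. Obp59a (FBgn0034766, 2R:22702695-22703786, plus strand) was at 27.2, 28.7, 26.3, 27.8 and 26.1 CPM in the 5 neuronal overexpression libraries, 29.98, 34.8, 35.3, 31.1 and 31.6 in the nSyb-Gal4/+ group and 35.6, 36.6, 38.9, 40.1 and 37.5 in the UAS/+ group. The groups did not overlap, and the nSyb-Gal4 libraries lay between those of the other groups. In log2 terms the difference was -0.26 (SE 0.05 and edgeR adjusted p 0.00250) against the nSyb-Gal4/+ group and -0.47 (SE 0.05 and edgeR adjusted p 4.13e-06) against the UAS/+ group, and the nSyb-Gal4/+ group was itself lower than the UAS/+ group, at -0.21 (SE 0.05 and edgeR adjusted p 0.00666). It was the sole tested member with all 5 overexpression libraries on 1 side of all 10 controls, which held for 6.88% of all tested genes. All 15 fits that left out 1 library kept the calls against both controls, and a joint fit with the glia dataset, whose spread is wider, ended them at log2 fold changes of -0.25 and -0.46.

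Obp84a, a gene of the coeloconic hairs of the antenna, was slightly higher. Obp84a (FBgn0011282, 3R:7250725-7251957, minus strand) was at 49.6, 50.4, 49.8, 53.2 and 48.5 CPM in neuronal overexpression, 41.6, 46.3, 46.2, 44.8 and 43.5 in the nSyb-Gal4/+ group and 45.4, 40.5, 40.7, 39.8 and 49.9 in the UAS/+ group. All overexpression libraries lay above all nSyb-Gal4 libraries, while 1 UAS library reached into their range. The fitted log2 difference was 0.18 (SE 0.06 and edgeR adjusted p 0.0461) against the nSyb-Gal4/+ group and 0.22 (SE 0.06 and edgeR adjusted p 0.00814) against the UAS/+ group. The first call was lost when any 1 of 9 libraries was left out (neuronal overexpression 1, 2, 3 and 4, nSyb-Gal4 control 1, 2, 4 and 5, and UAS control 1), with log2 fold changes of 0.16 to 0.20 over all 15 fits and adjusted p up to 0.112.

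**Figure D4:**
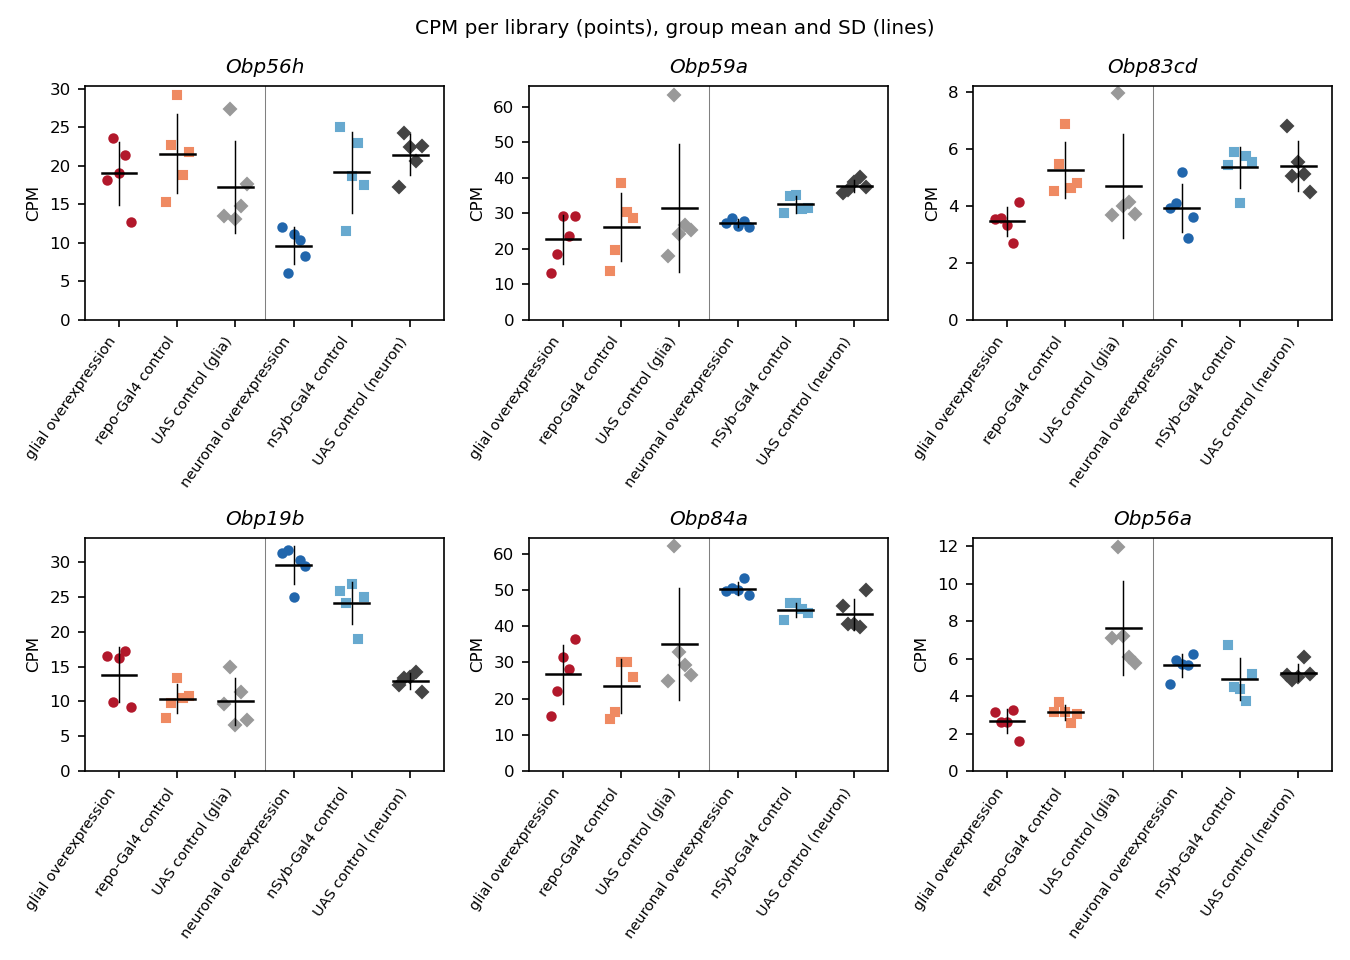
CPM per library of the 5 Obp genes changed against both controls in neuronal overexpression, and of Obp56a, in the 6 groups of 5 libraries (horizontal lines are group means, vertical lines SDs). Neuronal overexpression libraries of Obp59a lie below all 10 of their controls, and the Obp56a libraries of glial overexpression and the repo-Gal4/+ group lie below those of their UAS/+ group.

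Obp56h showed the largest fall of the genes changed against both controls. Obp56h, whose knockdown is known to alter mating behaviour and cuticular hydrocarbons, lies in the Obp56 array (FBgn0034475, 2R:19815554-19816204, plus strand). It was at 12.1, 6.10, 11.1, 10.4 and 8.24 CPM in neuronal overexpression, 25.0, 11.5, 18.7, 22.9 and 17.6 in the nSyb-Gal4/+ group and 17.3, 24.3, 22.5, 20.7 and 22.5 in the UAS/+ group. The highest overexpression library lay just above the lowest nSyb-Gal4 library and below all UAS libraries. The log2 difference was -0.997 (SE 0.21 and edgeR adjusted p 0.00416) against the nSyb-Gal4/+ group and -1.16 (SE 0.20 and edgeR adjusted p 0.000715) against the UAS/+ group, and the controls differed by -0.16 (SE 0.20 and edgeR adjusted p 0.569). These calls against both controls held in all 15 fits without 1 library. With the glial driver Obp56h reached 19.0 ± 4.10 CPM in overexpression heads, compared with 21.6 ± 5.16 CPM in the repo-Gal4/+ group and 17.3 ± 5.95 in the UAS/+ group, and was not called against either.

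Obp83cd, which codes for a protein with a doubled binding domain, was lower by a smaller amount. Obp83cd (FBgn0046878, 3R:6108134-6109733, plus strand) was at 3.94, 4.09, 5.18, 2.87 and 3.62 CPM in neuronal overexpression, 5.44, 5.91, 4.10, 5.76 and 5.56 in the nSyb-Gal4/+ group and 6.82, 5.06, 5.56, 5.14 and 4.49 in the UAS/+ group. Both pairs of groups overlapped. Its change on the log2 scale was -0.45 (SE 0.14 and edgeR adjusted p 0.0418) against the nSyb-Gal4/+ group and -0.46 (SE 0.14 and edgeR adjusted p 0.0186) against the UAS/+ group. Leaving out 1 library ended the first call in 11 of 15 fits (neuronal overexpression 1, 2, 4 and 5, nSyb-Gal4 control 1, 2, 4 and 5, and UAS control 2, 3 and 4; adjusted p up to 0.116) and the second in 3 (neuronal overexpression 4 and 5 and UAS control 1; adjusted p up to 0.0594). The neighbouring and overlapping Obp83ef was not called, at -0.18 and -0.20.

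Obp19b differed between all 3 genotypes of the neuron dataset. Obp19b, needed for the taste of amino acids, lies between Obp19a and Obp19c on X (FBgn0031110, X:20416733-20417812, plus strand). It was at 31.3, 31.7, 24.9, 30.4 and 29.5 CPM in neuronal overexpression, 25.8, 24.1, 26.9, 19.0 and 25.1 in the nSyb-Gal4/+ group and 12.4, 13.4, 13.5, 14.3 and 11.3 in the UAS/+ group. The overexpression and the nSyb-Gal4 libraries both lay above all UAS libraries and overlapped each other. In log2 terms the difference was 1.19 (SE 0.09 and edgeR adjusted p 5.13e-08) against the UAS/+ group and 0.29 (SE 0.09 and edgeR adjusted p 0.0313) against the nSyb-Gal4/+ group, while the nSyb-Gal4/+ group was higher than the UAS/+ group by 0.90 (SE 0.09 and edgeR adjusted p 2.17e-06). The call against the nSyb-Gal4/+ group was lost without any 1 of 6 libraries (neuronal overexpression 1, 2, 4 and 5 and nSyb-Gal4 control 2 and 4), at log2 fold changes of 0.22 to 0.35 over all 15 fits and adjusted p up to 0.0665. Its neighbour Obp19c rose against the nSyb-Gal4/+ group alone, by 0.37 (SE 0.06 and edgeR adjusted p 0.000345), with 9.70 ± 0.563 CPM in neuronal overexpression, 7.49 ± 0.299 in the nSyb-Gal4/+ group and 9.16 ± 0.606 in the UAS/+ group. The other members of this array, Obp19a and Obp19d, differed by -0.07 and 0.12 from the nSyb-Gal4/+ group and were not called there.

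Of the antennal members, Obp83a and Obp83b were lower than in the UAS/+ group in both neuronal overexpression and the nSyb-Gal4/+ group, while Obp28a, Obp69a and Obp19d were not called and Obp84a was higher in overexpression. Obp83a was at 247, 286, 257, 279.9 and 242 CPM in neuronal overexpression, 265, 287, 297, 266 and 324 in the nSyb-Gal4/+ group and 349, 314, 315, 368 and 333 in the UAS/+ group. Overexpression libraries lay below all UAS libraries and overlapped the nSyb-Gal4/+ group. Its log2 difference was -0.36 (SE 0.07 and edgeR adjusted p 0.000803) against the UAS/+ group and -0.13 (SE 0.07 and edgeR adjusted p 0.219) against the nSyb-Gal4/+ group. The nSyb-Gal4/+ group differed from the UAS/+ group by -0.22 (SE 0.07 and edgeR adjusted p 0.0254), a call lost without nSyb-Gal4 control 1, 2 or 4 or UAS control 1 or 4 (adjusted p up to 0.0828). Obp83b behaved likewise, at 123, 144, 131, 142 and 129.9 CPM in neuronal overexpression, 132, 141, 139.8, 123 and 145 in the nSyb-Gal4/+ group and 167, 167, 169, 192 and 189 in the UAS/+ group. No library of the first pair of groups reached the UAS libraries. Its log2 difference was -0.40 (SE 0.06 and edgeR adjusted p 0.000141) for overexpression and -0.38 (SE 0.06 and edgeR adjusted p 0.000379) for the nSyb-Gal4/+ group, each against the same UAS libraries, and -0.02 between overexpression and the nSyb-Gal4/+ group. The antennal genes Obp28a and Obp69a were not called in any of these comparisons, at -0.09 and 0.07 for overexpression against the UAS/+ group.

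Other genes of odorant reception in a list of 22 (receptors, co-receptors, sensory membrane proteins and antennal secreted proteins, all tested) were read in the same comparisons. Against the UAS/+ group, 11 of 22 were lower and 0 higher in neuronal overexpression, and 11 were lower and 0 higher in the nSyb-Gal4/+ group, with list medians of -0.24 and -0.26. Over all tested genes 20.2% and 13.8% were lower in these comparisons. Overexpression and the nSyb-Gal4/+ group themselves differed in 16.5% of all tested genes. Of the 22 listed genes they differed in 0 by edgeR (2 at an unadjusted p under 0.05), with a median of 0.01. Among them Orco was at 73.7 ± 5.82 CPM in neuronal overexpression, 75.5 ± 5.80 in the nSyb-Gal4/+ group and 93.2 ± 4.84 in the UAS/+ group, a log2 difference from the UAS/+ level of -0.34 (edgeR adjusted p 0.000625) in overexpression and -0.31 (edgeR adjusted p 0.00231) in the nSyb-Gal4/+ group. The secreted antennal protein a5 was at 42.5 ± 2.12, 42.4 ± 2.71 and 82.0 ± 7.28 CPM in the same order of groups, and lush was lower, at -0.33 (edgeR adjusted p 0.00256) and -0.25 (edgeR adjusted p 0.0204) on the log2 scale. Markers of sensillum support cells, a list of 5 that shares lush, Snmp1, a5 and a10 with these genes, summed to 312 to 343 CPM, 295 to 343 CPM and 388 to 447 CPM per library in the 3 groups. Of these 5, 4 were lower than in the UAS/+ group in overexpression and 4 in the nSyb-Gal4/+ group. The marker nompA, outside the reception list, was not called, at 7.14 ± 0.542, 7.23 ± 0.419 and 7.09 ± 0.667 CPM in the 3 groups. Olfactory neuron markers, 6 genes with Orco the most abundant, summed to 103 to 121, 103 to 120.0 and 123 to 140.0 CPM, and no marker of either list was at 0 in a group mean. Of these 6, 2 were called lower and 0 higher against the UAS/+ group in overexpression, and likewise in the nSyb-Gal4/+ group. In bulk heads, fewer cells of a type and less RNA per cell cannot be told apart, and the part of either in the Obp values was not tested.

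Obp99a and Obp99b, at opposite ends of 1 array on 3R, differed in opposite directions between the nSyb-Gal4/+ group and the UAS/+ group. Between neuronal overexpression and the nSyb-Gal4/+ group only Obp99b was called. Obp99b is known as a gene of the head fat body under control of the sex determination pathway. Obp99b (FBgn0039685, 3R:29716254-29716896, minus strand) was at 45.4, 12.6, 38.7, 39.2 and 40.0 CPM in neuronal overexpression, 29.8, 164, 125, 300.3 and 238 in the nSyb-Gal4/+ group and 12.9, 17.9, 12.2, 19.4 and 15.9 in the UAS/+ group. Of the nSyb-Gal4 libraries 4 were above all others, and neuronal overexpression 2 was within the range of the UAS/+ group while its other 4 libraries were above it. The log2 fold change of overexpression was -2.28 (SE 0.50 and edgeR adjusted p 0.00774) against the nSyb-Gal4/+ group and 1.17 (SE 0.50 and edgeR adjusted p 0.0805) against the UAS/+ group, and the nSyb-Gal4/+ group was above the UAS/+ group at 3.45 (SE 0.53 and edgeR adjusted p 0.000640). The call against the nSyb-Gal4/+ group held in all 15 fits without 1 library, while the one against the UAS/+ group was gained without neuronal overexpression 2 or nSyb-Gal4 control 1 and with DESeq2, with log2 fold changes of 1.08 to 1.40 over the alternatives.

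Obp99a (FBgn0039678, 3R:29671657-29672334, plus strand) was at 17.0, 71.7, 55.9, 25.9 and 54.0 CPM in neuronal overexpression, 35.6, 50.5, 38.9, 45.0 and 58.9 in the nSyb-Gal4/+ group and 196, 133, 177, 154 and 95.7 in the UAS/+ group. Overexpression and the nSyb-Gal4/+ group overlapped, and both lay below all UAS libraries. The log2 fold change against the UAS/+ group was -1.75 (SE 0.35 and edgeR adjusted p 0.00190) in overexpression and -1.72 (SE 0.35 and edgeR adjusted p 0.00341) in the nSyb-Gal4/+ group, which share the UAS libraries, and -0.03 between overexpression and the nSyb-Gal4/+ group. Obp99b exceeded Obp99a in CPM in 2 of 5 neuronal overexpression libraries, 4 of 5 nSyb-Gal4 libraries and 0 of 5 UAS libraries. The glia dataset gave 0 of 5 in glial overexpression heads, 4 of 5 in the repo-Gal4/+ group and 0 of 5 in the UAS/+ group. The exceptions among the driver controls were nSyb-Gal4 control 1 and repo-Gal4 control 3.

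**Figure D5:**
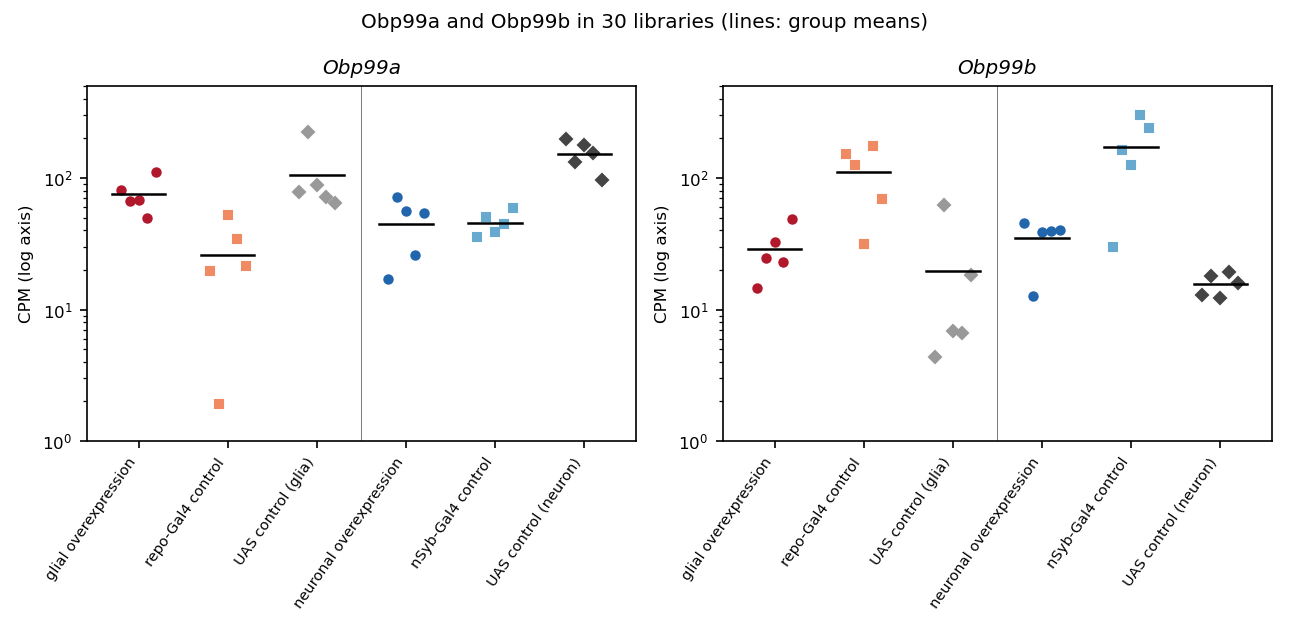
CPM (log axis) of Obp99a at left and Obp99b at right in 30 libraries, with group means as lines. Obp99a is lower and Obp99b higher in most libraries of the repo-Gal4 and nSyb-Gal4 controls than in their UAS/+ groups, and the overexpression groups of Obp99b lie between the means of their controls.

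In the glia dataset the main edgeR fit of all 15 libraries called neither gene of this pair. DESeq2 called both between the controls, with Obp99a lower and Obp99b higher in the repo-Gal4/+ group. With the length slope as covariate, edgeR also called both between the controls, at -1.95 (edgeR adjusted p 0.0159) for Obp99a and 3.29 (edgeR adjusted p 0.00808) for Obp99b. That fit called both in overexpression against the repo-Gal4/+ group, at 1.66 (edgeR adjusted p 0.0393) and -2.23 (edgeR adjusted p 0.0403), and neither against the UAS/+ group. Obp99b was at 14.4, 24.8, 32.4, 22.9 and 48.7 CPM in glial overexpression heads, 152, 125, 31.5, 174 and 69.1 in the repo-Gal4/+ group and 4.34, 62.8, 6.88, 6.67 and 18.2 in the UAS/+ group. Apart from repo-Gal4 control 3, the repo-Gal4 libraries lay above all overexpression libraries. UAS control 2 lay above all overexpression libraries, UAS control 5 within their range, and the other UAS libraries below it. Its log2 difference was -1.95 (SE 0.70 and edgeR adjusted p 0.589) against the repo-Gal4/+ group and 0.54 (SE 0.68 and edgeR adjusted p 0.860) against the UAS/+ group, and 2.48 (SE 0.72 and edgeR adjusted p 0.200) between the controls. Without both libraries that stood apart these were -2.18 (SE 0.45 and edgeR adjusted p 0.0156), 1.68 (SE 0.47 and edgeR adjusted p 0.0321) and 3.86 (SE 0.53 and edgeR adjusted p 0.00126). Obp99a was at 81.6, 66.2, 68.1, 49.2 and 111 CPM in glial overexpression heads, 19.7, 1.93, 52.4, 34.2 and 21.3 in the repo-Gal4/+ group and 77.7, 222, 88.7, 71.2 and 64.3 in the UAS/+ group. Its lowest overexpression library was just below the highest repo-Gal4 library, repo-Gal4 control 3. The log2 difference was 1.54 (SE 0.60 and edgeR adjusted p 0.752) against the repo-Gal4/+ group, -0.48 (SE 0.59 and edgeR adjusted p 0.858) against the UAS/+ group and -2.01 (SE 0.61 and edgeR adjusted p 0.253) between the controls. Without the pair of libraries that stood apart these were 1.97 (SE 0.57 and edgeR adjusted p 0.0637), 0.01 (SE 0.53 and edgeR adjusted p 0.994) and -1.96 (SE 0.58 and edgeR adjusted p 0.0980).

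Markers of sex were read beside this pair because Obp99b is sex-dependent. Of 4 male-biased genes, 2 were higher in the nSyb-Gal4/+ group than in the UAS/+ group and 0 lower, Cyp4d21 at 0.42 (edgeR adjusted p 0.00646) and sxe2 at 0.23 (edgeR adjusted p 0.0131), while roX1 and roX2 were not called. Over all tested genes 11.8% were higher and 13.8% lower between these controls. Of 4 female-biased genes (Yp1, Yp2, Yp3 and fit) 0 were called between these controls by edgeR, with 0 at an unadjusted p under 0.05. In neuronal overexpression Yp2, fit and sxe2 were lower than in both controls, and all 4 female-biased genes were lower than in the UAS/+ group, with fit at 26.4 ± 16.1 CPM, against 109 ± 74.6 in the nSyb-Gal4/+ group and 125 ± 37.1 in the UAS/+ group. The summed male-biased CPM was 626 to 796 in neuronal overexpression, 714 to 900.3 in the nSyb-Gal4/+ group and 525 to 784 in the UAS/+ group, and the female-biased sum was 17024 to 39921, 38171 to 63479 and 30609 to 60902. Of 7 fat body markers, AkhR, plin1 and FASN1 were lower in neuronal overexpression than in both controls. Over all tested genes 5.43% were lower than in both controls, and 20.2% lower than in the UAS/+ group. Against the UAS/+ group Fbp1 was higher in neuronal overexpression, at 2.48 (edgeR adjusted p 0.000492) on the log2 scale, and in the nSyb-Gal4/+ group, at 2.14 (edgeR adjusted p 0.00262). The lipoprotein gene apolpp was lower in overexpression than in the nSyb-Gal4/+ group, at -0.84 (edgeR adjusted p 0.00188), and higher in the nSyb-Gal4/+ group than in the UAS/+ group, at 0.50 (edgeR adjusted p 0.0320). The fat body sums were 3100.2 to 5862, 6419 to 9859.8 and 5379 to 6958 CPM. No marker of the 3 lists was at 0 in a group mean, and the part of sex ratio or fat body in the Obp99 values was not tested. In glial overexpression 0 of 4 female-biased and 0 of 7 fat body genes were called against either control by edgeR, and 1 of 4 male-biased genes was lower against the UAS/+ group. Over all tested genes 0.484% were called against the repo-Gal4/+ group and 1.13% against the UAS/+ group.

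The remaining members called in the neuron dataset were named after their values were seen. Obp8a, on X, was lower than in the UAS/+ group in neuronal overexpression, at -1.06 (SE 0.12 and edgeR adjusted p 9.70e-06) on the log2 scale, and in the nSyb-Gal4/+ group, at -0.996 (SE 0.12 and edgeR adjusted p 2.62e-05). It was at 8.11, 7.32, 8.48, 7.50 and 6.59 CPM in neuronal overexpression, 8.11, 8.84, 7.20, 6.03 and 9.52 in the nSyb-Gal4/+ group and 15.4, 15.1, 19.5, 16.6 and 12.6 in the UAS/+ group, so that the UAS libraries stood above both others. Obp57a was lower in overexpression than in the nSyb-Gal4/+ group, at -0.64 (SE 0.12 and edgeR adjusted p 0.00129), with 8.44 ± 1.17 CPM in neuronal overexpression, 13.1 ± 2.30 in the nSyb-Gal4/+ group and 9.57 ± 0.923 in the UAS/+ group. Its array neighbours Obp57b and Obp57c were higher in the nSyb-Gal4/+ group than in the UAS/+ group, by 0.50 and 0.25 on the log2 scale, and Obp57c was also higher in overexpression, by 0.31.

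In the Obp56 array, members moved apart from each other. Against the UAS/+ group, neuronal overexpression was higher for Obp56b (log2 fold change 2.75), Obp56e (0.29) and Obp56f (0.98), and lower for Obp56h (-1.16), while Obp56a, Obp56c, Obp56d and Obp56g were not called by edgeR and Obp56c was called higher by DESeq2. Obp56b rested on few reads, with 10 to 21 counts per library in overexpression, 2 to 21 in the nSyb-Gal4/+ group and 0 to 4 in the UAS/+ group. The call of Obp56e was lost without neuronal overexpression 3, UAS control 1 or UAS control 2 (adjusted p up to 0.0747). Obp83g, higher against the UAS/+ group at 0.31, lost its call without neuronal overexpression 1 or 2 or UAS control 2, 4 or 5 (adjusted p up to 0.0890). The other calls against the UAS/+ group were Obp58d, higher at 1.53 from 9 to 19 counts per overexpression library, Obp58b, lower at -0.72, and Obp19a, lower at -0.23. Obp44a was higher in the nSyb-Gal4/+ group than in the UAS/+ group by 0.26, a call lost without nSyb-Gal4 control 2 or 5 or UAS control 1, 2 or 3 (adjusted p up to 0.0894). Of the 5 most abundant members, Obp19d, Obp99c, Obp44a and Obp56d were not called in neuronal overexpression against either control, with log2 fold changes of -0.19 to 0.12.

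Glial overexpression left the family with few called differences. Against the repo-Gal4/+ group, 0 of 32 tested members were called by edgeR, with 0.484% of all tested genes called, 4 members at an unadjusted p under 0.05 and 1 by DESeq2 (Obp57a, lower). Against the UAS/+ group, 1 of 32 was called, with 1.13% of all tested genes, and 1 between the repo-Gal4/+ group and the UAS/+ group, with 0.888%, in each case Obp56a, lower. Over all tested genes the calls were 0.350% higher and 0.135% lower in the first of these comparisons, 0.753% higher and 0.377% lower in the second, and 0.457% higher and 0.431% lower in the third. Against both controls 0 were called by edgeR, by DESeq2 or at an unadjusted p under 0.05 against each, with 0.161% of all tested genes called, 0.0987% higher and 0.0628% lower. No member had all 5 overexpression libraries on 1 side of all 10 controls, against 1.41% of all tested genes. The median log2 fold change over the 32 members was -0.07 against the repo-Gal4/+ group and -0.26 against the UAS/+ group, beside -0.02 and -0.09 over all tested genes. Without the pair of libraries that stood apart, the members' medians were 0.08 and 0.10, so that their sign rested on those libraries. Glial overexpression 3 and 5, with length slopes of -0.317 and -0.312, remained in that fit, and their part in these medians was not tested.

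Obp56a was low in glial overexpression and in the repo-Gal4/+ group alike. In the blow fly Phormia regina the OBP56a protein of the mouthparts carries fatty acids. Obp56a (FBgn0034468, 2R:19697723-19698508, plus strand) was at 3.13, 2.60, 2.64, 3.27 and 1.63 CPM in glial overexpression heads, 3.16, 3.69, 3.16, 2.58 and 3.07 in the repo-Gal4/+ group and 7.13, 11.96, 7.20, 6.07 and 5.79 in the UAS/+ group. The first pair of groups overlapped and both lay below every UAS library. Expressed as log2 fold, the difference was -1.52 (SE 0.22 and edgeR adjusted p 0.00350) for overexpression and -1.28 (SE 0.22 and edgeR adjusted p 0.0119) for the repo-Gal4/+ group, each against the same UAS libraries, and -0.24 (SE 0.22 and edgeR adjusted p 1.00) between overexpression and the repo-Gal4/+ group. Both calls held in every fit that was rerun with other settings or libraries, while a threshold of 0.01 in the all-library fit lost the one for the repo-Gal4/+ group. Without UAS control 2 and repo-Gal4 control 3 the differences were -1.30 (SE 0.17 and edgeR adjusted p 0.000338) and -1.05 (SE 0.18 and edgeR adjusted p 0.00487). In the neuron dataset Obp56a was at 5.65 ± 0.598 CPM in neuronal overexpression, 4.91 ± 1.14 in the nSyb-Gal4/+ group and 5.26 ± 0.472 in the UAS/+ group, and was not called there.

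Leaving out the pair of libraries that stood apart raised the number of calls in the glia dataset. Against the repo-Gal4/+ group, 3 members were then lower and 0 higher, with 6.35% of all tested genes called: Obp99b, Obp57a at -0.89 (SE 0.20 and edgeR adjusted p 0.0224) and Obp83cd at -0.49 (SE 0.11 and edgeR adjusted p 0.0219). Obp83cd was at 3.53, 3.58, 3.34, 2.70 and 4.12 CPM in glial overexpression heads, 4.54, 5.48, 6.87, 4.62 and 4.81 in the repo-Gal4/+ group and 3.70, 7.96, 4.01, 4.13 and 3.72 in the UAS/+ group, so that overexpression lay below every repo-Gal4 library. Obp57a was at 7.79, 6.06, 8.15, 9.72 and 14.3 CPM in glial overexpression heads, 16.6, 15.9, 14.1, 16.0 and 19.7 in the repo-Gal4/+ group and 12.1, 8.24, 10.7, 8.02 and 10.7 in the UAS/+ group. Only glial overexpression 5 reached the repo-Gal4 range. Against the UAS/+ group, 6 members were called without the pair, 4 higher (Obp18a, Obp56g, Obp99b and Obp99d) and 2 lower (Obp56a and Obp56e), with 17.2% of all tested genes, and still 0 against both controls, with 3.97%. Between the controls 2 members were called, with 4.35% of all tested genes. The length slope as covariate gave 6 members against repo-Gal4/+ (7.49% of all tested genes), 11 against UAS/+ (31.5%), 6 between the controls (8.95%) and 3 lower ones against both, Obp44a, Obp83cd and Obp99c (5.03%).

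The antennal members varied within the groups of the glia dataset. Obp83a was at 142, 185, 296, 219 and 320.4 CPM in glial overexpression heads, 146, 164, 376, 244 and 235 in the repo-Gal4/+ group and 192, 743, 228, 226 and 222 in the UAS/+ group. Glial overexpression 1 and 2 and repo-Gal4 control 1 and 2 were the low libraries, and the same 4 had the lowest sums of olfactory neuron markers, at 51.04, 73.4, 49.1 and 69.8 CPM, among 15 libraries with sums up to 107. The next lowest sums, 73.96 and 75.8 CPM, were those of UAS control 1 and 2. Their Obp83a values were 192 and 743 CPM, the latter the highest of the dataset. The part of antennal content in these values was not tested. Of the 22 odorant reception genes, 0 were called by edgeR between glial overexpression and either control, with 0 at an unadjusted p under 0.05. Over all tested genes 0.484% were called against the repo-Gal4/+ group and 1.13% against the UAS/+ group. The abundant members Obp44a and Obp99c were at 713 ± 110.3 and 479 ± 118 CPM in glial overexpression heads, 1058 ± 385 and 674 ± 282 in the repo-Gal4/+ group, and 1268 ± 1087 and 783 ± 733 in the UAS/+ group. Neither was called in the main fit of all libraries or without the pair that stood apart. A fit of all libraries with the length slope as covariate called both lower against the repo-Gal4/+ group, at -0.54 (SE 0.09 and edgeR adjusted p 0.00227) and -0.48 (SE 0.08 and edgeR adjusted p 0.00151). It also called both lower against the UAS/+ group, at -0.51 (SE 0.09 and edgeR adjusted p 0.00186) and -0.35 (SE 0.08 and edgeR adjusted p 0.00540).

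The glial and the neuronal effect were compared in a fit of all 30 libraries, taking overexpression less the average of its 2 control groups as the effect of each dataset. Of 34 members 1 differed, with 1.1% of all tested genes, 0.548% higher and 0.557% lower, and this was Obp56a, at -1.06 (SE 0.23 and edgeR adjusted p 0.0156). Its glial effect includes a difference between controls, since the repo-Gal4/+ group was itself lower than the UAS/+ group. Glial overexpression was called against the UAS/+ group, at -1.52, and not against the repo-Gal4/+ group, at -0.24. Obp56h was next, at 1.04 (SE 0.28 and edgeR adjusted p 0.0743), and passed the threshold with DESeq2 and without the pair that stood apart, at 1.23 (SE 0.24 and edgeR adjusted p 0.00110). Without that pair 6 members differed (Obp8a, Obp18a, Obp56a, Obp56e, Obp56h and Obp99a), with 34.2% of all tested genes called. Driver, extraction and dataset cannot be told apart in this comparison. The UAS controls of the glia and the neuron dataset, nominally the same genotype, differed in Obp49a, with 3.05% of all tested genes called, 1.35% higher and 1.71% lower. Obp49a was at 81.8 ± 16.1 CPM in the UAS/+ group of the glia dataset and 142 ± 10.4 in that of the neuron dataset, a log2 fold change of -0.70 (SE 0.14 and edgeR adjusted p 0.00400). Without the pair of libraries 20 members differed, 1 higher and 19 lower, with 51.4% of all tested genes called.

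Enzymes that clear odorants were followed as a list of 8, all tested. In neuronal overexpression 3 were lower and 0 higher against the nSyb-Gal4/+ group, and 4 were lower and 2 higher against the UAS/+ group, with medians of -0.07 and -0.20. Of all tested genes, 8.34% were lower and 8.19% higher in the first comparison, and 20.2% lower and 18.3% higher in the second. Est-6, an esterase of antenna and reproductive tract, was lower than in both controls, at 266 ± 32.6 CPM in neuronal overexpression, 428 ± 82.0 in the nSyb-Gal4/+ group and 369 ± 43.2 in the UAS/+ group. Its log2 difference was -0.69 (edgeR adjusted p 0.000956) and -0.47 (edgeR adjusted p 0.00619). The UDP-glycosyltransferase Ugt35B1 was also lower than in both, at -0.36 (edgeR adjusted p 0.00112) and -0.24 (edgeR adjusted p 0.00805). Of all tested genes, 5.43% were lower than in both controls. In glial overexpression 0 of 8 were called against the repo-Gal4/+ group by edgeR (1 at an unadjusted p under 0.05) and 1, Ugt35C1, was higher than in the UAS/+ group, at 1.93 (edgeR adjusted p 4.79e-06). It was higher in the repo-Gal4/+ group as well, at 2.07 (edgeR adjusted p 1.98e-06). Of all tested genes, glial overexpression had 0.484% called against the repo-Gal4/+ group and 1.13% against the UAS/+ group.

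Markers of the other cell types of the head were read in the same fits. Of 6 gustatory neuron genes, 0 were called between neuronal overexpression and the nSyb-Gal4/+ group by edgeR, and 2 were lower than in the UAS/+ group, with medians of -0.03 and -0.10. Of 7 glial genes 2 were lower against each control and only repo against both, and of 5 neuronal genes 3 were higher against the UAS/+ group and 0 were called against the nSyb-Gal4/+ group. Of all tested genes, 16.5% were called against the nSyb-Gal4/+ group, 38.6% against the UAS/+ group and 10.2% against both. In glial overexpression none of these 3 lists had a called gene against either control. The medians against the repo-Gal4/+ and UAS/+ groups were 0.07 and -0.22 for gustatory, 0.07 and 0.08 for glial, and -0.81 and -0.96 for neuronal genes. The neuronal sums spread widely, at 1190 to 4569 CPM in glial overexpression, 410 to 5135 in the repo-Gal4/+ group and 336 to 4937 in the UAS/+ group. The lowest control sums were those of repo-Gal4 control 3 and UAS control 2, with length slopes of -0.80 and -1.17. Without them the controls were at 3063 to 5135 and 4689 to 4937 CPM. In overexpression, libraries 3 and 5 were lowest, at 1190 and 1364 CPM and slopes of -0.317 and -0.312. The medians above include all these libraries. The cause was not tested. The smallest p of an exact two-sided permutation test of 5 libraries against 5 is 0.00794. Of the 5 members changed against both controls, that value was reached by Obp59a against both neuron dataset controls, by Obp84a against the nSyb-Gal4/+ group, and by Obp19b and Obp56h against the UAS/+ group. Against the other control of each pair, the exact permutation p was 0.0317 for Obp84a, 0.0317 for Obp19b and 0.0159 for Obp56h, and for Obp83cd it was 0.0159 against the nSyb-Gal4/+ group and 0.0317 against the UAS/+ group.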

How the data were processed

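RNA was sequenced from heads of 30 samples. Gene counts were made by the authors and deposited per library as whole, unnormalized counts. STAR, HTSeq and BDGP6 are named in the submitters' processing notes, and their versions and strand setting are not given in the sources used here. TruSeq libraries were used throughout, per the labels' protocols, with RNA of the glia dataset isolated by Trizol followed by RNeasy Micro, and RNA of the neuron dataset by RNeasy Micro. The 5 counter summary rows of each file were left out, and rows outside genes held 5.62 to 10.5% of counted reads in a library.

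FlyBase IDs were matched to symbols in a table of gene names, with 17790 matches in the glia tables and 17626 in the neuron tables. Positions and exon lengths came from the Ensembl annotation of BDGP6.54. Members, marker lists and tests were chosen with earlier results of these data known. No sequence table was used.

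Each dataset was fitted in edgeR 4.0.16 (R 4.3.3) with its filter on low counts, TMM scaling, robust quasi-likelihood F tests and Benjamini-Hochberg adjustment over all tested genes, and a gene was called at an adjusted p under 0.05. The glial minus neuronal effect and the UAS controls were compared in a fit of 30 libraries. Steps were tested on simulated data. Alternatives were DESeq2 1.42.0 as test and as size factors, no filter, a replicate block, an adjusted p under 0.01, a change of at least 1.5-fold, leaving out each library, leaving out both libraries with a low length slope, the slope as covariate, a joint fit of 30 libraries, and scaling by library size alone. Genes were named where they changed against both controls, were among the 8 most abundant, differed between the glial and neuronal effect, or had a described role. Members outside this rule were named after their values were seen. Depth was 28685786 to 84208964 gene counts per library, and replicates differed by more than counting noise, with a chi-square per degree of freedom of at least 12.7.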

Additional observations from a re-analysis of the deposited data

Results flagged for a closer look

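Within groups of 5 libraries, 26 of 114 tests of the highest or lowest library found it farther from the others than Dixon's critical value of 0.71 allows, and chance gives about 1 in 20. UAS control 2 of the glia dataset accounted for 17 of them and repo-Gal4 control 3 for 6, the pair with length slopes of -1.17 and -0.80.

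UAS control 2 was high in Obp19d (2643 CPM), Obp28a (395), Obp44a (3207), Obp49a (109.6), Obp56a (11.96), Obp56d (1875), Obp56e (1585), Obp59a (63.4), Obp69a (65.3), Obp83a (743), Obp83b (345), Obp83cd (7.96), Obp84a (62.1), Obp99a (222), Obp99b (62.8) and Obp99c (2094), and its summed Obp CPM was 14300.4. Repo-Gal4 control 3 was high in Obp19d (1985 CPM), Obp44a (1745), Obp56d (826), Obp56e (528) and Obp99c (1173), with a sum of 7975.

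The neuron dataset, with 3 of the 6 groups, held the remaining 3 flags, in 1 gene each. That is close to the 1 in 20 that chance gives. Neuronal overexpression 2 was low in Obp99b, at 12.6 CPM against 38.7 to 45.4 in the others of its group. The nSyb-Gal4 control 3 was low in Obp83cd, at 4.10 CPM against 5.44 to 5.91, and UAS control 4 was high in Obp56a, at 6.07 CPM against 4.86 to 5.19.

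The glial and neuronal effects differed for Obp56a, with a difference of -1.06 on the log2 scale in the fit of 30 libraries, and the glia and neuron datasets differ in RNA extraction as well. Each effect is taken against the average of its controls. In the glia dataset Obp56a was called against the UAS/+ group, at -1.52, and not against the repo-Gal4/+ group, at -0.24. The repo-Gal4/+ group was itself lower than the UAS/+ group, so the glial effect includes a difference between controls.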

How the results depend on the processing

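Called members were counted again under each alternative, and no called log2 fold change turned its sign. Values that were not called did: without both low-slope libraries, 8 of 32 members turned against the repo-Gal4 control, 13 against the UAS control (among them Obp28a, Obp83a, Obp83b and Obp99c) and 9 between the controls. Of the values that answer a comparison, 242 kept their side or stayed within 1.5 times and 58 moved. Of the values for named genes, 855 kept their call, 81 lost it and 23 gained one. Counts here are members called. Where no share of all tested genes stands beside a count, it shows how calling depends on the setting and is not a result about the family.

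With the DESeq2 test the count was 1 for glial overexpression against the repo-Gal4 control, 3 for the repo-Gal4 control against the UAS control, 2 for glial minus neuronal and 3 for the UAS controls of both datasets. DESeq2 size factors gave 2 for the UAS controls. At an adjusted p under 0.01 it was 0 for the repo-Gal4 control against the UAS control, 5 for neuronal overexpression against the nSyb-Gal4 control, 0 for glial minus neuronal and 2 for neuronal overexpression against both controls. With a change of at least 1.5-fold it was 3 against the nSyb-Gal4 control, 8 against the UAS control, 7 between the neuron dataset controls and 1 against both. Without both low-slope libraries it was 3 for glial overexpression against the repo-Gal4 control, 6 against the UAS control, 2 between those controls, 6 for glial minus neuronal (34.2% of all tested genes) and 20 for the UAS controls (51.4%). With the length slope as covariate it was 6, 11 and 6 in the glia dataset comparisons in that order, and 3 against both controls (Obp44a, Obp83cd and Obp99c, all lower), with 5.03% of all tested genes. In the joint fit of 30 libraries it was 1, 2 and 5 in the glia dataset and 3, 5 and 3 in the neuron dataset, and 1 for neuronal overexpression against both controls. The cause was not tested.

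Correlations of deviations between same-numbered libraries exceeded 0.1 in 8 of 15 pairs of the glia dataset and 1 of 15 of the neuron dataset. Between differently numbered libraries this held in 29 of 60 and 8 of 60 pairs. The glia medians were 0.259 for same and 0.066 for different numbers. There the lowest and highest correlations, -0.797 and 0.884, both involved repo-Gal4 control 3, so the check cannot settle pairing in the glia dataset. With the replicate block the count was 5 for neuronal overexpression against the nSyb-Gal4 control, 14 against the UAS control, 13 between their controls, 2 against both (Obp84a, Obp19b and Obp83cd lost the call against the nSyb-Gal4 control), 1 for glial minus neuronal, 0 for the UAS controls, and 0, 1 and 1 in the glia dataset.

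Leaving out 1 library gave 0 to 2 for glial overexpression against the repo-Gal4 control (1 without glial overexpression 5, 2 without UAS control 2), 1 to 1 against the UAS control and 1 to 2 between the controls (2 without UAS control 2). In the neuron dataset it gave 5 to 9 against the nSyb-Gal4 control (5 without neuronal overexpression 1 or 4 or nSyb-Gal4 control 2 or 4), 14 to 18 against the UAS control and 12 to 15 between the controls. Against both controls it gave 2 to 6 in neurons (2 without neuronal overexpression 1 or 4 or nSyb-Gal4 control 2 or 4, 3 without neuronal overexpression 2 or 5, nSyb-Gal4 control 5 or UAS control 1) and 0 to 0 in glia. It gave 1 to 2 for glial minus neuronal (2 without glial overexpression 5, repo-Gal4 control 3, UAS control 2 of the glia dataset or nSyb-Gal4 control 2) and 1 to 12 for the UAS controls (12 without UAS control 2 of the glia dataset, 2 without glial overexpression 5, repo-Gal4 control 1 or 4, UAS control 5 of the glia dataset, or nSyb-Gal4 control 1 or 4). The 17 members not tested had at most 130 counts over 30 libraries, and for Obp50b and Obp50c, with the same exons, reads could not be assigned at any depth.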
